A study of Mus musculus with 15 samples.

Results

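The genes described here are interferon-stimulated genes, the set of antiviral and signalling genes that cells switch on when interferon binds its receptors. Of 41 such genes listed by name, those with a value in the deposited table were taken, which gave 32 genes of 13513 named genes with a value. Each of the 32 is measured by 1 probe set. Igtp and Dhx58 have an identifier but no value here, and Ifi44, Gbp5, Gbp6, Ifi203, Ifi205, Trim34a and Nlrc5 do not occur under those symbols in the platform annotation. None of these 9 was analysed here. The list is one of gene names, drawn up with earlier results of these data known. In the table the identifiers and values are out of step. Values were taken from 6900 rows further on (and a further 3 for chromosomes 10 and 11, which hold Irf1, Stat2, Ifi35, Irgm1 and Xaf1), an inference from the values that no source states. Every gene name below depends on it. Identifiers at the end of the table have no row that far on, so only 15303 of the 22206 rows were paired with an identifier. Among the listed members this loss is seen on chromosome 11, for Igtp and Dhx58. In all lists below, measured means with a value after this pairing. A gene can thus be missing because of its place in the table, which is neither a result nor a choice.

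Interferons reach cells through surface receptors whose JAK kinases phosphorylate STAT proteins. Type I interferons act mainly through the interferon-stimulated response element (ISRE) in promoters, and interferon gamma acts through gamma-activated sites (GAS). The products sense foreign nucleic acid, degrade RNA, block virus entry and release, or feed back on the pathway, and in the infarcted heart interferon responses are best known from macrophages and other infiltrating cells.

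Affymetrix arrays measured 3 groups of cells from C57BL/6 mouse hearts at 8 to 12 weeks of age, with 5 biological replicates each. CF are cardiac fibroblasts of unstressed control hearts, aCF are activated cardiac fibroblasts, and EpiSC are epicardial stromal cells, the latter both from hearts 5 days post MI (myocardial infarction). The study compared aCF with CF and EpiSC with aCF, and EpiSC with CF is added here as a secondary comparison. EpiSC were shaken off the surface of the heart during collagenase perfusion, whereas CF and aCF came from ventricles after removal of the atria, straining and a slow spin, so cell type and isolation cannot be told apart in comparisons with EpiSC. The labels name no sham operation for CF. The labels state no sort by a surface marker, so the samples are bulk fractions, and fewer cells of a type and less RNA per cell cannot be told apart.

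Promoter stretches that carry the 2 binding motifs are shown first, because these motifs are known as binding sites of interferon-activated factors. No binding was measured here. RefSeq promoter windows (GRCm38.p6) matched 27 of the 32 members, and the 250 bases before each start were searched on both strands for the ISRE core (GAAA, any 2 bases, GAAA) and the GAS motif TTCNNNGAA. The first 5 below are from members that rose, Irf1 is a member that fell and has GAS without ISRE, and Stat2 and Ifitm2 hold the ISRE core but passed no test. Each line runs 5′ to 3′ on the strand of the gene, and capitals mark the motif.
Isg15, chr4:156200850-156200909, minus strand, ISRE: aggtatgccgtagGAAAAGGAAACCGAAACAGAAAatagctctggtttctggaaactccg
Oas1a, chr5:120907526-120907585, minus strand, ISRE: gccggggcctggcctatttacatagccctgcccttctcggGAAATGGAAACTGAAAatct
Bst2, chr8:71537568-71537627, minus strand, ISRE: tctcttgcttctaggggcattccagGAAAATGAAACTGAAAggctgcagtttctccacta
Trim30a, chr7:104465195-104465254, minus strand, ISRE: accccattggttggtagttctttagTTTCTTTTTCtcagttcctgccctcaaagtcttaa
Gbp3, chr3:142559980-142560039, plus strand, ISRE: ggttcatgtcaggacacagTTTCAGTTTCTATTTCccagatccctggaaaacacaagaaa
Irf1, chr11:53769899-53769958, plus strand, GAS: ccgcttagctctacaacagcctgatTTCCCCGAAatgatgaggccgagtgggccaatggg
Stat2, chr10:128270251-128270310, plus strand, ISRE: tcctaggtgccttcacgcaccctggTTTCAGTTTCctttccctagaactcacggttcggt
Ifitm2, chr7:140955973-140956032, minus strand, ISRE: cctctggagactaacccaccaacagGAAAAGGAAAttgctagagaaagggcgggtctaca

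Overlapping copies are capitalised as 1 run. Isg15 holds 3 overlapping ISRE cores between 78 and 57 bases before the start. Oas1a, Bst2 and Gbp3 hold a pair of overlapping cores each, and in Bst2 a GAS match shares bases with them. The ISRE core was found in 11 of the 27 members with a window (40.74%), against 936 of 27025 genes with a window (3.46%). The GAS motif was found in 4 of 27 (14.81%), against 2197 of 27025 (8.13%). A gene was counted if any of its windows held a match. Gbp3, Trim30a and Irf1 have 2 windows each, and in each gene 1 of them holds neither motif. No window was matched for Oas2, Zbp1, Usp18, Gbp4 and Ifi204. The window of Irf7 holds neither motif in these 250 bases.

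The values are log2 expression centred on the median of the 15 arrays, so differences are measured and levels are not, and members cannot be ranked by abundance. Signal over background is lost as well, and the number of arrays limits the precision. Epicardial markers fit the label of EpiSC: 6 of 8 measured markers rose against aCF at a Benjamini-Hochberg adjusted p under 0.05, Wt1 by 2.01 ± 0.18 and Bnc1 by 2.36 ± 0.22 (log2 difference ± SE). Fibroblast markers have a value for 11 of 12 listed genes, but centred values cannot show whether a marker is absent. The arrays aCF4 and aCF5 stand apart from the other aCF arrays in heart muscle genes, whose mean lay at -0.67 and -0.54 there against 0.01 to 0.28 in aCF1 to aCF3.

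**Figure D1:**
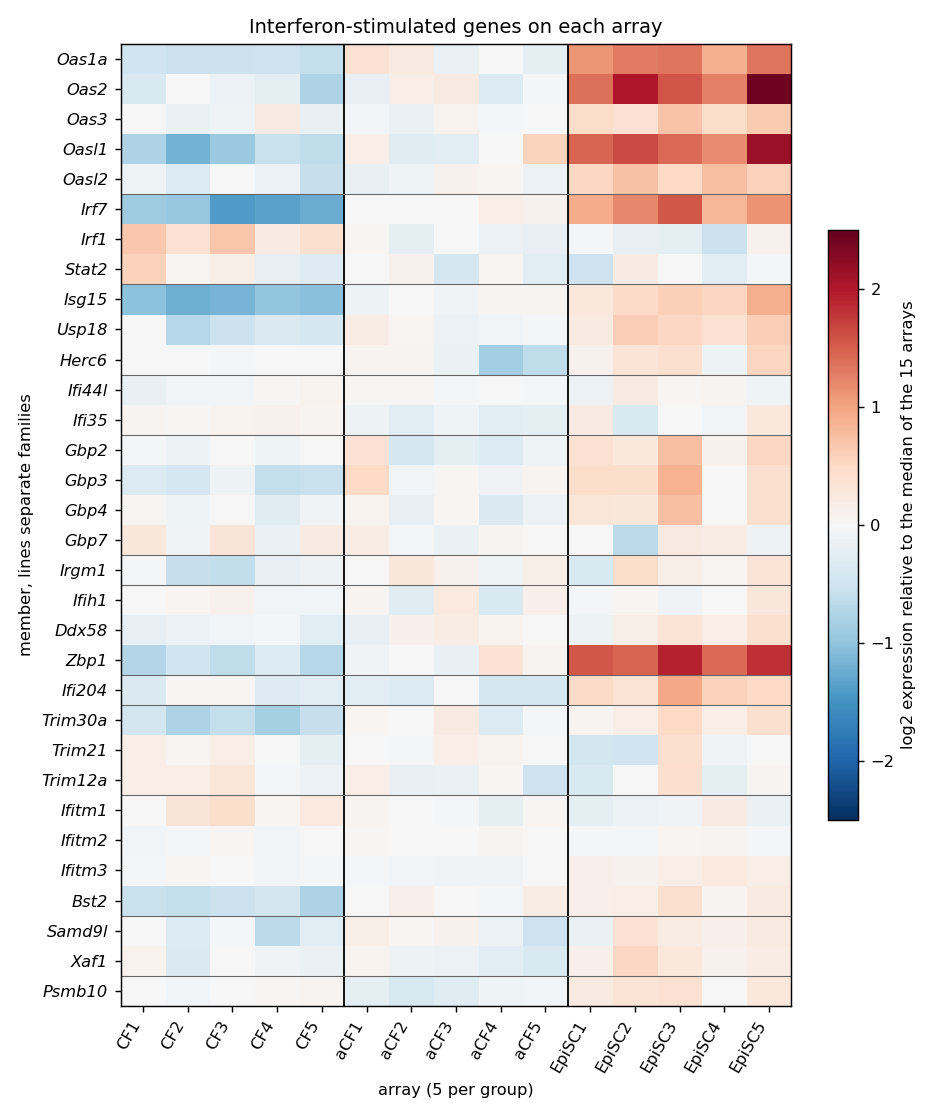
Heat map of the 32 members (in order of family, separated by thin lines) on the 15 arrays, in log2 units from each gene's median over the 15 arrays; blue is lower and red is higher. The 5 OAS genes, Irf7, Isg15 and Zbp1 are red on all 5 EpiSC arrays, while Irf1 is red on all 5 CF arrays.

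Fibroblasts of infarcted hearts carried more RNA of Irf7, the transcription factor that drives type I interferon genes, and of Isg15, a ubiquitin-like protein, than fibroblasts of unstressed hearts. Irf7 was 2.33-fold higher in aCF and Isg15 2.1-fold. These were the only members past Bonferroni adjustment over 22206 rows (limma, adjusted p under 0.05), 2 of 32, against 1.53% of all rows (1.21% higher and 0.32% lower). At the Benjamini-Hochberg threshold of 0.05 the rise also took in Oas1a, Oasl1, Usp18, Gbp3, Zbp1, Trim30a and Bst2, so that 9 members rose and 3 fell (Irf1, Ifi35 and Psmb10). Among all rows 18.1% passed, 8.74% higher and 9.38% lower. The other 20 members passed neither adjustment. The median difference of the 32 members was 0.03, and -0.02 over all rows, with 18 differences above 0 and 14 below. The aCF and CF arrays did not overlap for 8 members that were higher and 2 that were lower in aCF (of all rows 14.7% did not overlap, 7.88% higher and 6.84% lower). Without aCF4 and aCF5 together Irf7 passed only the less strict threshold, and 1 member passed Bonferroni.

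EpiSC carried more RNA of several antiviral genes than aCF of the same stage after infarction. The nucleic acid sensor Zbp1 was 3.03-fold higher and passed Bonferroni adjustment, 1 of 32 members, against 0.666% of all rows (0.401% higher and 0.266% lower). At the Benjamini-Hochberg threshold 13 members rose and 0 fell (9.61% of all rows passed, 4.61% higher and 5.01% lower): Oas1a, Oas2, Oas3, Oasl1, Oasl2, Irf7, Isg15, Usp18, Zbp1, Ifi204, Ifitm3, Xaf1 and Psmb10. At an unadjusted p under 0.05 the counts were 17 and 0 (23.9% of all rows, 12% higher and 11.9% lower). The lowest EpiSC array lay above the highest aCF array for 13 of the 32 members, the same 13, and for 5.18% of all rows. In the other direction 0 members and 4.73% of all rows were separate, and 9.91% of all rows in either. The calls and this separation come from the same arrays and are not independent. The median difference of the members was 0.31, against 0.01 over all rows, and 26 of 32 differences were positive. Without EpiSC3 Irf7 also passed Bonferroni (0.97, Bonferroni adjusted p = 0.0372), and 2 members then passed. Without aCF4 and aCF5 together 10 members passed the less strict threshold, and Usp18, Ifitm3 and Xaf1 did not (Benjamini-Hochberg adjusted p = 0.0672, 0.0807 and 0.158).

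**Figure D2:**
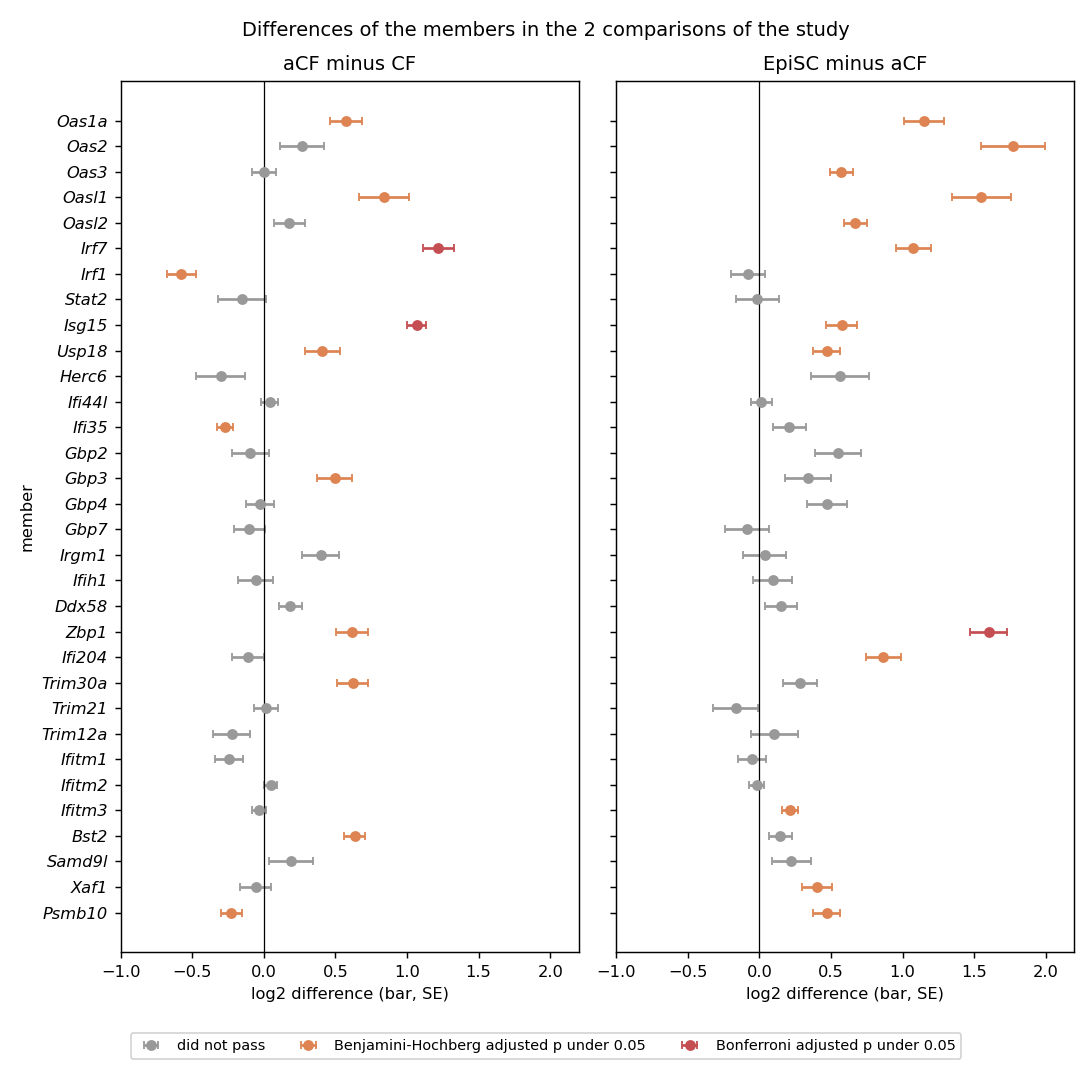
Log2 difference with its SE (bars) for each of the 32 members, aCF minus CF on the left and EpiSC minus aCF on the right; red passed Bonferroni adjustment, orange only Benjamini-Hochberg adjustment, grey neither. Points right of the line are higher in aCF (left) or EpiSC (right); the 5 OAS genes are orange on the right, and Irf1 is the lowest point on the left. Both comparisons use the same aCF arrays.

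EpiSC against CF spans both differences, and it shares its arrays with the 2 other comparisons. There 6 members passed Bonferroni adjustment, all higher in EpiSC (2.91% of all rows passed, 1.97% higher and 0.941% lower): Oasl1 (5.23-fold), Irf7 (4.9-fold), Zbp1 (4.65-fold), Oas1a (3.3-fold), Isg15 (3.12-fold) and Bst2 (1.72-fold). The call of Bst2 (Bonferroni adjusted p = 0.0432) was lost when any 1 of the 10 arrays was left out, with a Bonferroni adjusted p between 0.0734 and 0.26. At the Benjamini-Hochberg threshold 20 members rose and 1, Irf1, fell, while 32.2% of all rows passed, 14.5% higher and 17.7% lower. All rows include rows without a gene name. Of the 13538 named rows 2401 were higher and 2059 lower at this threshold. In aCF against CF 1541 named rows were higher and 1218 lower, and in EpiSC against aCF 799 and 874. The arrays of EpiSC and CF did not overlap for 16 members that were higher and 1 that was lower (23.4% of all rows, 11.6% higher and 11.8% lower). The median difference was 0.42, and -0.01 over all rows. For 5 members, Oas1a, Oasl1, Irf7, Isg15 and Zbp1, every CF array lay below every aCF array and every aCF array below every EpiSC array, an order that 1.23% of all rows shared.

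**Figure D3:**
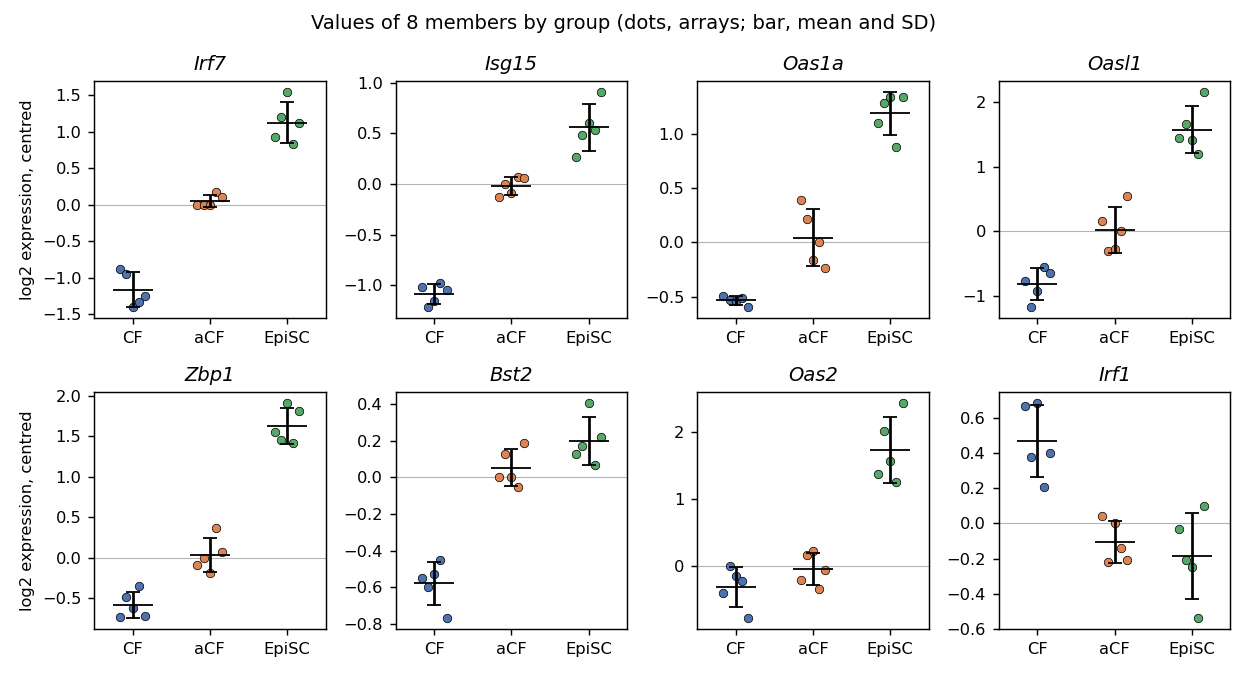
Values of 8 members on each array (dots) with the group mean and SD (bar), in log2 expression centred on the median of the 15 arrays; each panel has its own scale. Irf7, Isg15, Oas1a, Oasl1 and Zbp1 step up from CF to aCF to EpiSC without overlap, Bst2 steps up once, Oas2 is raised in EpiSC, and Irf1 is highest in CF.

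The OAS enzymes make short oligoadenylates on double-stranded RNA, which switch on the nuclease RNase L. The values of Oas1a were -0.49, -0.53, -0.54, -0.51 and -0.6 in CF, 0.39, 0.22, -0.16, 0 and -0.24 in aCF and 1.1, 1.29, 1.34, 0.88 and 1.34 in EpiSC. It was 0.58 ± 0.11 (log2 difference ± SE, n = 5 per group) higher in aCF than in CF (adjusted p = 0.00524, by Benjamini-Hochberg as is every adjusted p below that does not name Bonferroni) and 1.15 ± 0.14 higher in EpiSC than in aCF (adjusted p = 0.000674). The CF arrays lay close together and below all others, and the EpiSC arrays above all others. In CF Oas2 measured -0.39, 0, -0.14, -0.22 and -0.77, in aCF -0.2, 0.17, 0.23, -0.34 and -0.05 and in EpiSC 1.37, 2.02, 1.57, 1.26 and 2.44. Oas2, the medium-sized enzyme of the family, differed by 0.27 ± 0.15 between aCF and CF, whose arrays overlapped (adjusted p = 0.277), and was 1.77 ± 0.22 higher in EpiSC than in aCF (adjusted p = 0.000839), the largest difference of any member in that comparison. For Oasl1 the CF arrays gave -0.77, -1.18, -0.93, -0.55 and -0.64, the aCF arrays 0.16, -0.31, -0.28, 0 and 0.55 and the EpiSC arrays 1.45, 1.66, 1.41, 1.19 and 2.16. Oasl1, an inactive relative known in mice to hold back translation of Irf7 mRNA, was 0.84 ± 0.17 higher in aCF (adjusted p = 0.00752) and a further 1.55 ± 0.21 higher in EpiSC (adjusted p = 0.00124), without overlap between any groups. Oas3 and Oasl2 rose in EpiSC against aCF, by 0.57 ± 0.08 (adjusted p = 0.00169) and 0.67 ± 0.08 (adjusted p = 0.000758). Between aCF and CF they differed by 0.00 ± 0.09 and 0.18 ± 0.11, with overlapping arrays. The mean of the 5 genes per array lay at -0.55 to -0.24 in CF, -0.07 to 0.02 in aCF and 0.91 to 1.43 in EpiSC. Oas1a belongs to a cluster of near-identical copies, so its probe set may also read its neighbours.

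Of the transcription factors, Irf7 rose and Irf1 fell from CF to aCF. Irf7 read -0.88, -0.95, -1.41, -1.34 and -1.25 on the CF arrays, -0.01, -0.01, 0, 0.17 and 0.11 on the aCF arrays and 0.93, 1.21, 1.55, 0.83 and 1.12 on the EpiSC arrays. The groups were separate in both steps. The rise from CF to aCF was 1.22 ± 0.11 (Bonferroni adjusted p = 0.00682, and at most 0.0462 with any 1 array left out), and the rise from aCF to EpiSC was 1.08 ± 0.12 (adjusted p = 0.000543, Bonferroni 0.109). The values of Irf1 were 0.67, 0.38, 0.69, 0.21 and 0.4 in CF, 0.04, -0.22, 0, -0.14 and -0.21 in aCF and -0.03, -0.21, -0.25, -0.54 and 0.1 in EpiSC. Irf1, an early factor of the interferon gamma response, fell by 0.58 from CF to aCF (SE 0.10, adjusted p = 0.00315), with every CF array above every aCF array. EpiSC and aCF overlapped (-0.08 ± 0.12, adjusted p = 0.737). Stat2, a transcription factor of the type I interferon response, ranged from -0.33 to 0.57 in CF, -0.42 to 0.11 in aCF and -0.51 to 0.2 in EpiSC. Its differences were -0.15 ± 0.17 and -0.01 ± 0.15, and the 3 groups overlapped.

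Isg15 is attached to proteins by a ligase that in mice is Herc6 and is removed by Usp18, which also dampens the type I interferon receptor. In CF Isg15 measured -1.02, -1.22, -1.16, -0.98 and -1.05, in aCF -0.13, 0, -0.09, 0.07 and 0.06 and in EpiSC 0.27, 0.48, 0.6, 0.53 and 0.91. The rise from CF to aCF was 1.07 ± 0.07 (Bonferroni adjusted p = 0.000251), the larger of its steps in value, and the further rise to EpiSC was 0.58 ± 0.11 (adjusted p = 0.00821). No groups overlapped. Usp18 ranged from -0.71 to 0 in CF, -0.14 to 0.19 in aCF and 0.23 to 0.62 in EpiSC. It was 0.41 ± 0.12 higher in aCF than in CF, with 1 CF array (CF1) inside the aCF range, and 0.47 ± 0.09 higher in EpiSC than in aCF (adjusted p = 0.0112). The first of these calls (adjusted p = 0.0402) was lost without any 1 of CF2 to CF5, aCF1, aCF2, aCF4 or aCF5, with an adjusted p of up to 0.0924; without aCF4 and aCF5 together neither passed (0.109 and 0.0672). For Herc6 the CF arrays gave -0.01, 0, -0.05, 0 and 0, the aCF arrays 0.06, 0.06, -0.17, -0.87 and -0.64 and the EpiSC arrays 0.11, 0.35, 0.4, -0.13 and 0.53. In Herc6 only aCF4 and aCF5 were low, and the differences of -0.30 ± 0.17 and 0.56 ± 0.20 did not pass (adjusted p = 0.266 and 0.115). Those are also the aCF arrays with the low heart muscle genes, and the part of one in the other was not tested. The E1 enzyme of the same conjugation route, Uba7, was 0.45 ± 0.10 higher in EpiSC than in aCF (adjusted p = 0.0194, and 0.0513 without aCF1). Its E2 enzyme Ube2l6 was 0.38 ± 0.07 higher in aCF than in CF and 0.40 ± 0.08 higher in EpiSC than in aCF (adjusted p = 0.00499 and 0.00949). Both belong to a wider list fixed for this work and were singled out after their values were seen.

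Ifi35, a leucine zipper protein of the antiviral response, and Ifi44l, of which less is known, differed by little. Ifi35 read 0.07, 0.02, 0.08, 0.11 and 0.06 on the CF arrays, -0.13, -0.29, -0.11, -0.27 and -0.22 on the aCF arrays and 0.21, -0.38, 0, -0.06 and 0.26 on the EpiSC arrays. Every aCF array lay below every CF array, and Ifi35 fell by 0.27 (SE 0.05, adjusted p = 0.00596), while the EpiSC arrays spread over both ranges (0.21 ± 0.12, adjusted p = 0.308). The fall did not pass in a fit of all 3 groups with 1 shared spread (adjusted p = 0.0762). The values of Ifi44l were -0.19, -0.06, -0.07, 0.02 and 0.09 in CF, 0.03, 0.03, -0.04, 0 and -0.03 in aCF and -0.14, 0.23, 0.02, 0.06 and -0.11 in EpiSC. All 3 groups of Ifi44l overlapped, with differences of 0.04 ± 0.06 and 0.01 ± 0.08.

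Guanylate-binding proteins are large GTPases that attack the membranes of intracellular pathogens, and immunity-related GTPases such as Irgm1 act beside them. In CF Gbp3 measured -0.34, -0.42, -0.13, -0.59 and -0.56, in aCF 0.49, -0.06, 0.03, -0.09 and 0.06 and in EpiSC 0.44, 0.43, 0.86, 0 and 0.4. Gbp3 rose by 0.49 ± 0.12 from CF to aCF (adjusted p = 0.0194), without overlap, and aCF1 stood above the other aCF arrays. Its EpiSC values overlapped those of aCF (0.34 ± 0.16, adjusted p = 0.227). For Gbp2 the CF arrays gave -0.03, -0.13, 0, -0.11 and 0.01, the aCF arrays 0.36, -0.43, -0.22, -0.34 and -0.1 and the EpiSC arrays 0.39, 0.26, 0.75, 0.1 and 0.51. Here CF and aCF overlapped (-0.09 ± 0.13), and the difference between EpiSC and aCF of 0.55 ± 0.16 did not pass (adjusted p = 0.0633), with aCF1 inside the EpiSC range. Gbp4 differed by -0.03 ± 0.10 and 0.47 ± 0.14 and passed in neither step (adjusted p = 0.885 and 0.06). Against CF, EpiSC were higher in Gbp2 by 0.45 ± 0.11, in Gbp3 by 0.83 ± 0.15 and in Gbp4 by 0.44 ± 0.13 (adjusted p = 0.01, 0.00178 and 0.0224). The call of Gbp4 was lost without CF4 (0.0528). Gbp7 ranged from -0.66 to 0.33 over the 15 arrays and differed by -0.10 ± 0.11 and -0.09 ± 0.16, with overlap throughout. Irgm1 read -0.03, -0.58, -0.62, -0.21 and -0.12 on the CF arrays, 0, 0.28, 0.1, -0.1 and 0.14 on the aCF arrays and -0.39, 0.46, 0.14, 0.05 and 0.34 on the EpiSC arrays. The difference of Irgm1 between aCF and CF was 0.40 ± 0.13 and did not pass (adjusted p = 0.0545), and between EpiSC and aCF it was 0.04 ± 0.15. Gbp2, Gbp3, Gbp4 and Gbp7 are close paralogs, and their probe sets may share signal.

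Zbp1 binds Z-form nucleic acid and can start necroptosis through RIPK3, and Ddx58 (RIG-I) and Ifih1 (MDA5) sense viral RNA in the cytoplasm. The values of Zbp1 were -0.74, -0.49, -0.63, -0.35 and -0.72 in CF, -0.09, 0, -0.19, 0.37 and 0.07 in aCF and 1.55, 1.45, 1.92, 1.42 and 1.82 in EpiSC. Zbp1 rose by 0.62 ± 0.11 from CF to aCF (adjusted p = 0.00379) and by 1.60 ± 0.13 from aCF to EpiSC (Bonferroni adjusted p = 0.00427, at most 0.0317 with any 1 array left out). All 5 EpiSC arrays lay more than 1 log2 unit above the highest aCF array. In CF Ddx58 measured -0.21, -0.14, -0.07, -0.04 and -0.27, in aCF -0.2, 0.13, 0.18, 0.08 and 0 and in EpiSC -0.13, 0.15, 0.35, 0.17 and 0.4. The RNA sensor Ddx58 overlapped between neighbouring groups (0.18 ± 0.08 and 0.15 ± 0.11, adjusted p = 0.149 and 0.466). Against CF it was 0.33 ± 0.10 higher in EpiSC (adjusted p = 0.0275), a call lost without any 1 of CF1, CF2, CF5, EpiSC3 or EpiSC5 (up to 0.0638). Ifih1 differed by -0.06 ± 0.12 and 0.09 ± 0.13 and ranged from -0.39 to 0.29 over all arrays, so neither RNA sensor passed in the steps where Zbp1 rose.

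The DNA-binding protein Ifi204, of the PYHIN family, set EpiSC apart from both fibroblast groups. For Ifi204 the CF arrays gave -0.37, 0.02, 0.03, -0.32 and -0.29, the aCF arrays -0.28, -0.34, 0, -0.42 and -0.43 and the EpiSC arrays 0.48, 0.35, 0.96, 0.58 and 0.49. CF and aCF overlapped (-0.11 ± 0.11), while all EpiSC arrays lay above all others, 0.87 ± 0.12 above aCF (adjusted p = 0.00184) and 0.76 ± 0.13 above CF (adjusted p = 0.00131). Trim30a, a TRIM protein that restrains Toll-like receptor signalling, passed in the first step. Trim30a read -0.46, -0.78, -0.6, -0.83 and -0.57 on the CF arrays, 0.05, 0, 0.22, -0.35 and -0.05 on the aCF arrays and 0.07, 0.16, 0.49, 0.17 and 0.41 on the EpiSC arrays. It was 0.62 ± 0.11 higher in aCF than in CF without overlap (adjusted p = 0.003), and EpiSC overlapped aCF (0.29 ± 0.12, adjusted p = 0.169). The values of Trim12a were 0.16, 0.16, 0.3, -0.03 and -0.15 in CF, 0.16, -0.18, -0.16, 0.02 and -0.52 in aCF and -0.39, 0, 0.42, -0.25 and 0.06 in EpiSC. Trim12a, a mouse relative of TRIM5, overlapped in all groups (-0.22 ± 0.13 and 0.10 ± 0.17). Trim21, an intracellular antibody receptor, differed by 0.02 ± 0.08 and -0.17 ± 0.16. Trim30a, Trim12a and Trim21 lie among related TRIM genes, and cross-reading of the Trim30 copies was not tested.

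Bst2 (tetherin) holds budding virus at the cell surface, and the IFITM proteins block fusion of virus with cell membranes. In CF Bst2 measured -0.55, -0.6, -0.53, -0.45 and -0.77, in aCF 0, 0.13, 0, -0.05 and 0.19 and in EpiSC 0.13, 0.17, 0.41, 0.07 and 0.22. Bst2 rose by 0.63 ± 0.07 from CF to aCF without overlap (adjusted p = 0.000251, Bonferroni 0.105), and EpiSC overlapped aCF (0.15 ± 0.08, adjusted p = 0.304). For Ifitm1 the CF arrays gave -0.01, 0.33, 0.44, 0.04 and 0.24, the aCF arrays 0.07, 0, -0.04, -0.25 and 0.05 and the EpiSC arrays -0.24, -0.15, -0.08, 0.21 and -0.16. The CF and aCF arrays of Ifitm1 overlapped (-0.24 ± 0.10, adjusted p = 0.123), as did EpiSC and aCF (-0.05 ± 0.10). Ifitm2 had the narrowest range of the 32 members, from -0.07 to 0.07 over the 15 arrays. Ifitm3 lay at -0.09 to 0.01 in aCF and 0.1 to 0.24 in EpiSC, a rise of 0.21 ± 0.05 (adjusted p = 0.0304) that was lost without any 1 of EpiSC1, EpiSC3, EpiSC4, EpiSC5 or aCF1 to aCF4 (up to 0.073). The IFITM genes are near-identical neighbours, which the array may not keep apart.

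Samd9l, a growth and virus restriction factor, Xaf1, which binds the apoptosis inhibitor XIAP, and Psmb10, a catalytic subunit of the immunoproteasome, differed by less than 0.5 between any groups. Samd9l read 0, -0.35, -0.04, -0.65 and -0.29 on the CF arrays, 0.15, 0.03, 0.1, -0.15 and -0.51 on the aCF arrays and -0.16, 0.36, 0.18, 0.13 and 0.23 on the EpiSC arrays. Its neighbouring groups overlapped (0.19 ± 0.15 and 0.22 ± 0.14). EpiSC were 0.41 ± 0.14 above CF (adjusted p = 0.0395), a call that held in 3 of 10 omissions and was lost without CF2, CF4, CF5 or any 1 of EpiSC2 to EpiSC5 (up to 0.0839). The values of Xaf1 were 0.09, -0.37, 0, -0.09 and -0.16 in CF, 0.09, -0.12, -0.15, -0.26 and -0.38 in aCF and 0.13, 0.51, 0.26, 0.11 and 0.19 in EpiSC. EpiSC lay above aCF by 0.40 ± 0.10 without overlap (adjusted p = 0.0373, lost in 8 of 10 omissions, namely all but EpiSC4 and aCF1, up to 0.0815). Against CF the rise was 0.35 ± 0.10 (adjusted p = 0.027, lost without CF2, CF5 or EpiSC2, up to 0.0579). In CF Psmb10 measured 0, -0.07, -0.01, 0.03 and 0.06, in aCF -0.23, -0.4, -0.31, -0.11 and -0.07 and in EpiSC 0.23, 0.35, 0.38, 0 and 0.27. It fell by 0.23 from CF to aCF (adjusted p = 0.0496, lost in 8 of 10 omissions, namely all but aCF4 and aCF5, up to 0.0995) and rose by 0.47 ± 0.09 from aCF to EpiSC (adjusted p = 0.0101). Against CF it was 0.24 ± 0.08 higher in EpiSC (adjusted p = 0.0317, lost in 8 of 10 omissions, namely all but CF5 and EpiSC4, up to 0.0729). It was the only member that passed in opposite directions in the 2 comparisons of the study.

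By their steps at the Benjamini-Hochberg threshold, 6 members rose both from CF to aCF and from aCF to EpiSC (Oas1a, Oasl1, Irf7, Isg15, Usp18 and Zbp1), as did 1.35% of all rows. A further 3 rose at the first step and passed no test at the second (Gbp3, Trim30a and Bst2; 5.89% of all rows), and 6 passed no test at the first step and rose at the second (Oas2, Oas3, Oasl2, Ifi204, Ifitm3 and Xaf1; 2.86% of all rows). Both steps share the aCF arrays. Whether the steps of a member differ in size was not tested. No test was passed in any of the 3 comparisons by 10 members (Stat2, Herc6, Ifi44l, Gbp7, Irgm1, Ifih1, Trim21, Trim12a, Ifitm1 and Ifitm2), whose values stayed between -0.87 and 0.57. Of the 12 calls in aCF against CF, 10 held with each array left out in turn, as did 11 of 13 in EpiSC against aCF and 16 of 21 in EpiSC against CF. The calls lost are named with their genes above.

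Arrays of a group differed in the mean over the members. Among EpiSC it was 0.53 in EpiSC3, 0.52 in EpiSC5, 0.39 in EpiSC2, 0.27 in EpiSC4 and 0.25 in EpiSC1. It lay between -0.12 and 0.03 in aCF and between -0.28 and -0.15 in CF, so no 2 groups overlapped. As deviations from the group means over the 15 arrays, 345 of 496 pairs of members correlated above 0, with a median r of 0.15. The 3 highest values were r = 0.87 for Gbp3 and Gbp4, 0.84 for Gbp2 and Gbp3 and 0.79 for Gbp2 and Gbp4, all among paralogs on the same arrays. EpiSC3 was the highest array for each of these 3 genes, at 0.75 to 0.86.

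Macrophages are the cells best known for interferon responses after infarction, and their markers are given here beside the members. Of 14 measured macrophage and monocyte markers, 6 rose and 0 fell from CF to aCF, and 1 rose (Plac8) and 5 fell from aCF to EpiSC. At this Benjamini-Hochberg threshold 8.74% of all rows rose and 9.38% fell at the first step. At the second step 4.61% rose and 5.01% fell. Lyz2, a lysozyme of macrophages, was 1.03 ± 0.17 higher in aCF than in CF (adjusted p = 0.00215) and fell by 0.87 from aCF to EpiSC (adjusted p = 0.00903). The mean of the markers per array lay at -0.38 to -0.21 in CF, 0.07 to 0.33 in aCF and -0.15 to 0.05 in EpiSC. In this mean 1 marker can weigh heavily, as the largest difference was 3.49 from CF to aCF and 4.14 from CF to EpiSC. The median difference of the 14 markers was 0.29 from CF to aCF. From CF to EpiSC it was 0.01, with 7 differences above 0 and 7 below. From CF to aCF the means of the macrophage markers and of the members were both higher, and from aCF to EpiSC the mean of the markers was lower and that of the members higher. The part of macrophages in the results for the members was not tested in either step. Of 6 pan-leukocyte markers 2 rose from CF to aCF and 2 fell from aCF to EpiSC, and the pan-leukocyte gene Ptprc differed by 0.05 ± 0.10 and 0.22 ± 0.14. Markers of neutrophils (10 measured), T and NK cells (11), B cells (3) and dendritic cells (7) gave 0 calls from aCF to EpiSC (limma, Benjamini-Hochberg), and 2, 1, 0 and 1 of them were higher at an unadjusted p under 0.05. By the same adjustment 2 neutrophil and 2 T and NK markers rose from CF to aCF and 0 fell. From CF to EpiSC 2 neutrophil and 3 T and NK markers rose and 0 fell (of all rows 14.5% rose and 17.7% fell). B cell and dendritic cell markers gave 0 calls in these comparisons as well. Endothelial markers fell in 4 of 10 cases, mural markers in 6 of 8 with 1 rise, heart muscle markers in 2 of 9 and fibroblast markers in 7 of 11 from aCF to EpiSC. Their part in the results for the members was not tested.

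**Figure D4:**
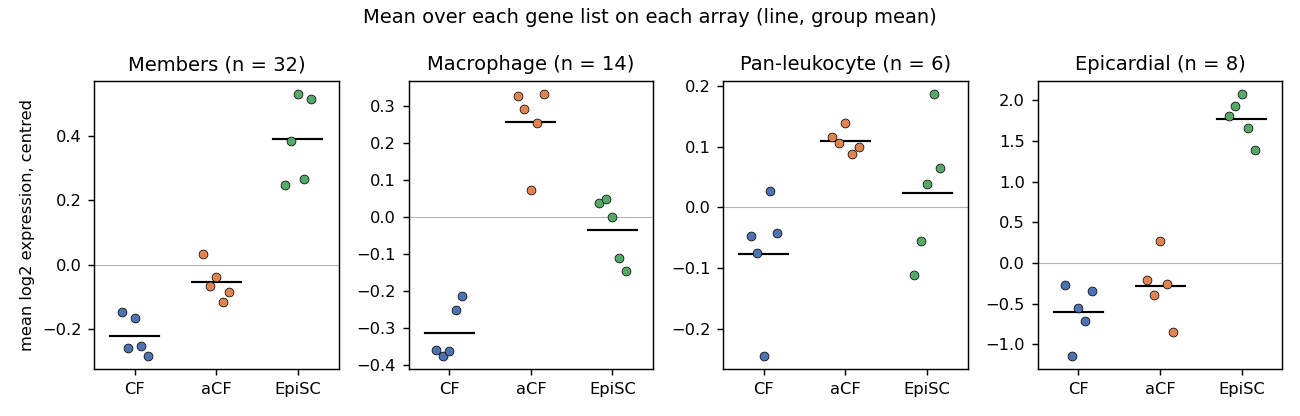
Mean of log2 expression, centred on the median of the 15 arrays, over the 32 members and over macrophage, pan-leukocyte and epicardial markers on each array (dots; line, group mean; n, genes in the list; each panel has its own scale). The members are highest in EpiSC, at 0.25 to 0.53, while the macrophage markers are highest in aCF, at 0.07 to 0.33. Between EpiSC and CF the median difference of the macrophage markers was 0.01.

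Genes upstream of the members were taken from lists fixed for this work. Beside their counts, 8.74% of all rows rose and 9.38% fell from CF to aCF at the Benjamini-Hochberg threshold. From aCF to EpiSC 4.61% rose and 5.01% fell. Few genes of the interferons themselves differed. Of 19 measured ligand genes 1, Ifnz, rose from CF to aCF (0.42 ± 0.09, adjusted p = 0.00722), and 0 passed from aCF to EpiSC by limma with either adjustment (at an unadjusted p under 0.05, 1 was higher and 1 lower). Ifnb1, interferon beta, differed by -0.03 ± 0.07 and 0.15 ± 0.09, and Ifng, interferon gamma, by -0.12 ± 0.09 and -0.02 ± 0.06, with overlapping arrays. The median difference of the ligands was 0.01 and 0.04, and whether these probe sets lay above background cannot be read from centred values. From CF to EpiSC, Ifna2 rose by 0.26 ± 0.08 (adjusted p = 0.0356, lost without CF2, CF3, CF5 or EpiSC2, up to 0.0842).

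Among receptors and kinases the gene with the largest difference was Ifngr1. For Ifngr1 the CF arrays gave 0.42, 0.83, 0.67, 0.73 and 0.56, the aCF arrays 0.04, -0.09, 0.27, -0.05 and 0 and the EpiSC arrays -0.85, -0.85, -0.82, -0.79 and -0.67. Ifngr1, the ligand-binding chain of the interferon gamma receptor, fell by 0.61 from CF to aCF (SE 0.09, adjusted p = 0.00131) and by 0.83 from aCF to EpiSC (SE 0.08, Bonferroni adjusted p = 0.0162), without overlap. The Bonferroni call in EpiSC against aCF was lost without any 1 of EpiSC1 to EpiSC4, aCF1, aCF4 or aCF5 (up to 0.0989), and its adjusted p by Benjamini-Hochberg then stayed at or below 0.00089. Jak1 fell by 0.21 from CF to aCF (adjusted p = 0.0406, lost in 8 of 10 omissions, all but aCF1 and aCF3, up to 0.0885), and differed by -0.23 ± 0.07 between EpiSC and aCF (adjusted p = 0.0538). Against CF, EpiSC were lower in Jak1 (-0.45 ± 0.06, adjusted p = 0.000241) and Tyk2 (-0.62 ± 0.09, adjusted p = 0.000542), the kinases of the type I receptor. Irf2, a factor that competes with Irf1 at its sites, fell by 0.60 from CF to aCF (adjusted p = 0.00309). Irf8 fell by 0.31 (adjusted p = 0.00972), and Irf3, which acts with Irf7 on interferon beta, differed by 0.03 ± 0.06 and 0.10 ± 0.07. Of 8 measured genes of this list, 4 fell and 0 rose from CF to aCF, and 1 fell and 1, Irf5, rose from aCF to EpiSC (0.48 ± 0.12, adjusted p = 0.0338, lost in 8 of 10 omissions, all but EpiSC5 and aCF5, up to 0.0819). Ifnar1 and Ifnar2, the type I receptor, are not among these 8 genes with a value, so they could not be analysed here.

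Among 12 measured genes of nucleic acid sensing, Mavs, the adaptor below the RNA sensors, fell by 0.46 from CF to aCF (Bonferroni adjusted p = 0.0483). That call was lost when any 1 array was left out (0.106 to 0.303), whereas by Benjamini-Hochberg the adjusted p stayed at or below 0.000754. Traf6 fell by 0.27 (adjusted p = 0.0445, lost without any 1 CF array, aCF4 or aCF5, up to 0.0945). From aCF to EpiSC the kinase Ikbke rose by 0.61 ± 0.15 (adjusted p = 0.0309, lost without EpiSC3, aCF1, aCF2, aCF3 or aCF5, up to 0.0747), and the DNA sensor Aim2 fell by 0.72 (adjusted p = 0.0117). Of 9 measured negative regulators, 3 rose and 1 fell from CF to aCF. Ptpn1, a phosphatase of JAK kinases, rose by 0.97 ± 0.13 (adjusted p = 0.000571), and Isg20, listed there although it is itself an interferon-stimulated nuclease, by 0.45 ± 0.11 (adjusted p = 0.0187). Pias1, an inhibitor of JAK-STAT signalling, fell by 0.30 (adjusted p = 0.0228). From aCF to EpiSC 0 of the 9 passed by limma with either adjustment (at an unadjusted p under 0.05, 0 were higher and 2 lower). From CF to EpiSC 2 rose and 1 fell (of all rows 14.5% rose and 17.7% fell). Isg20 rose by 0.66 ± 0.11 (adjusted p = 0.00124) and Samhd1 by 0.41 ± 0.10 (adjusted p = 0.0101), and Pias1 fell by 0.59 (adjusted p = 0.000336). Of 16 antigen presentation genes 1, B2m, has a value, and it differed by -0.06 ± 0.07 and -0.07 ± 0.11 (adjusted p = 0.607 and 0.753).

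**Figure D5:**
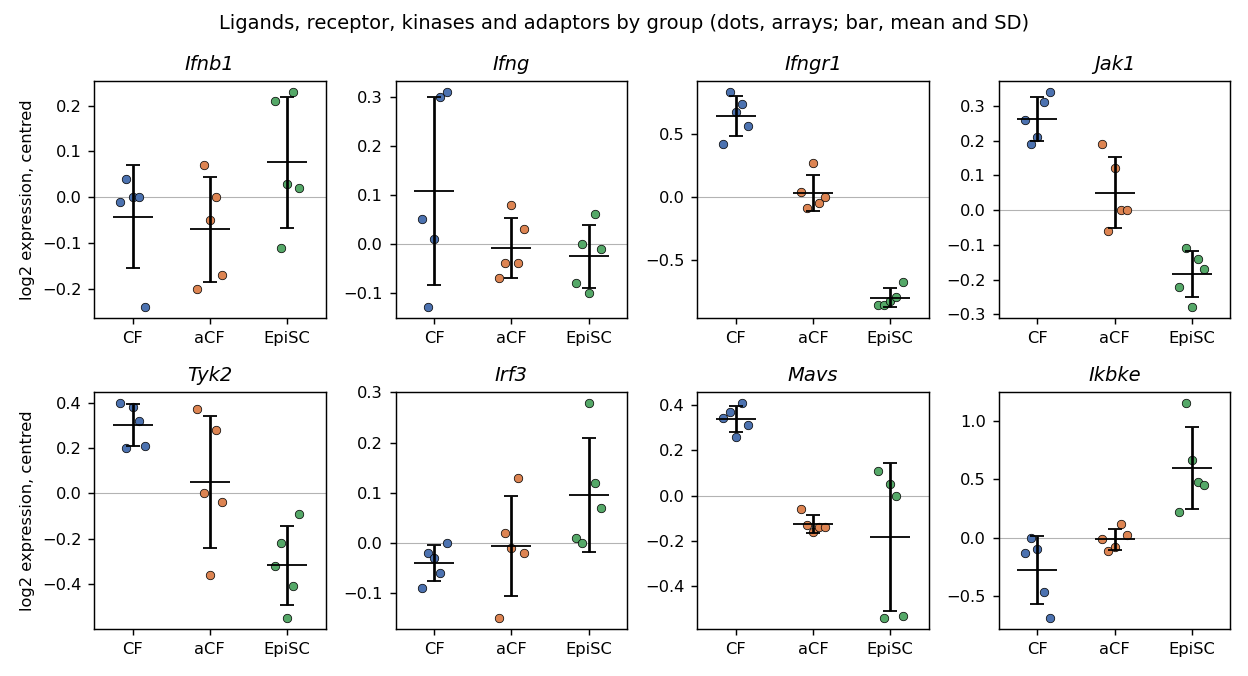
Values of 8 upstream genes on each array (dots) with the group mean and SD (bar), in log2 expression centred on the median of the 15 arrays; each panel has its own scale. Ifngr1 steps down from CF to aCF to EpiSC without overlap, Jak1 and Tyk2 are lowest in EpiSC, Mavs is highest in CF, and Ifnb1, Ifng and Irf3 overlap between groups.

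A further list of 92 interferon-stimulated genes, 43 of them measured, held 9 that rose and 6 that fell from CF to aCF and 9 that rose and 2 that fell from aCF to EpiSC. Of all rows 8.74% rose and 9.38% fell at the first of these steps, and 4.61% rose and 5.01% fell at the second. Oas1g read -0.72, -0.43, -0.55, -0.62 and -0.54 on the CF arrays, 0.2, 0.05, -0.01, -0.05 and 0 on the aCF arrays and 1.24, 1.3, 1.32, 1 and 1.16 on the EpiSC arrays. Oas1g, a near-identical copy beside Oas1a, rose by 0.61 ± 0.07 (adjusted p = 0.000229) and 1.17 ± 0.08 (Bonferroni adjusted p = 0.000679), close in value to Oas1a at 0.58 ± 0.11 and 1.15 ± 0.14. The values of Tgtp2 were -1.56, -2.05, -1.5, -1.72 and -1.51 in CF, -0.14, 0.08, -0.23, 0.15 and 0 in aCF and 0.19, 0.96, 1.1, 0.24 and 0.3 in EpiSC. Tgtp2, an immunity-related GTPase, rose by 1.64 ± 0.12 from CF to aCF (Bonferroni adjusted p = 0.000864), while EpiSC did not pass against aCF (0.59 ± 0.19, adjusted p = 0.083). Slfn2, a Schlafen protein of lymphocyte quiescence, rose by 1.52 ± 0.15 from aCF to EpiSC (Bonferroni adjusted p = 0.03, lost in 9 of 10 omissions, all but aCF5, up to 0.182). Its relative Slfn5 fell by 0.84 (adjusted p = 0.00041). Plscr1, a membrane phospholipid scramblase, rose by 0.89 ± 0.09 from CF to aCF (Bonferroni adjusted p = 0.0353, lost in 9 of 10 omissions, all but CF1, up to 0.205). The chemokine Cxcl9, a target of interferon gamma, rose by 0.75 ± 0.12 from CF to aCF (adjusted p = 0.0019), and differed by -0.11 ± 0.21 between EpiSC and aCF.

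Set beside the promoter sequences above, the 11 members with an ISRE core had a median difference of 0.40 from CF to aCF, of 0.29 from aCF to EpiSC and of 0.57 from CF to EpiSC. In the last, 7 of the 11 rose at the Benjamini-Hochberg threshold (of all rows 14.5% rose and 17.7% fell). The 16 members with a window and no ISRE core had medians of -0.045, 0.21 and 0.21, and in the last comparison 8 of them rose and 1 fell. Differences from CF to EpiSC overlapped, from -0.19 to 1.72 with the core and from -0.66 to 2.39 without it. Irf7 and Oasl1 are among the members without either motif, and Stat2, Gbp7, Irgm1 and Ifitm2 are members with a match that passed no test. Of the 4 members with GAS, Oas1a and Bst2 rose from CF to aCF, Irf1 fell and Gbp7 passed no test.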

How the data were processed

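RNA of 15 heart cell samples was amplified from 1 ng and hybridised to Affymetrix arrays, per the labels' protocols. The authors summarised probe signals in GeneSpring GX 12.5 with ExonRMA16 after quantile normalization and set the median of all samples as baseline, per the series' design text. The deposited values are log2 expression so centred (the base was inferred; range -4.77 to 5.52, every row median 0). A detection limit named there, at percentile 20 of each array's raw signal, could not be used on centred values.

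Identifiers were paired with values 6900 rows on (and 3 more on chromosomes 10 and 11), which gave 13538 named rows. At that step 26 cell cycle probe sets correlated at a mean of 0.257 (0.0233 as deposited, 0 of 9781 other steps higher) and 969 olfactory and vomeronasal receptor rows had a median SD of 0.101 (0.181 as deposited, 0 of 9296 lower). The extra 3 rows gave a median correlation of 0.666 over 16 genes, against 0.158 without them. Of 21 extra offsets tried, the best other one gave 0.32. Macrophage markers correlated at 0.0557, which 1230 of 10150 other steps exceeded. Endothelial markers correlated at 0.164 (92 of 11183 other steps higher) and mural markers at 0.219 (132 of 11026 higher). Heart muscle markers correlated at 0.478 (0 of 10766 higher).

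Each pair of groups was compared with limma 3.58.1 (R 4.3.3; lmFit and eBayes) over all 22206 rows, with Bonferroni adjustment at 0.05, as the design text names, and Benjamini-Hochberg adjustment beside it; procedures were tested on simulated data. All members are named. Values on every array are given for members past Bonferroni in any comparison and the 2 with the largest difference in each family. Of other pathway lists, genes past Bonferroni and up to 3 with the largest difference per comparison are named. Members, lists and rules were chosen with earlier results of these data known. Alternatives covered quantile normalization, a fit of all 3 groups, trend and robust moderation, the replicate number as a block, named rows only, the table order as deposited, and arrays left out.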

Additional observations from a re-analysis of the deposited data

Results flagged for a closer look

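Dixon's criterion was applied to 69 groups of 5 arrays, among them those of the 22 members given on every array. In 2 groups an array lay far from the others, which chance meets in about 1 in 20 groups. In CF, Herc6 read -0.05 in CF3 and -0.01 to 0 in the others, a gap of 0.8 of the range, which itself was small. In aCF, Gbp3 read 0.49 in aCF1 and -0.09 to 0.06 in the others, a gap of 0.741 of the range.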

How the results depend on the processing

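Of 9 Bonferroni calls of members in the 3 comparisons, 9 remained with quantile normalization, with a fit of all 3 groups and with named rows only, 8 with trend and robust moderation (Bst2 was lost) and 3 with the replicate block. Against 2 members past Bonferroni in aCF and CF, the replicate block gave 1, Benjamini-Hochberg 12, the fit without aCF4 and aCF5 1, and the table order as deposited 0. Against 1 in EpiSC and aCF, quantile normalization gave 2, the fit of all 3 groups 5, named rows only 3, the replicate block 0, Benjamini-Hochberg 13 and single arrays left out 1 to 2. Against 6 in EpiSC and CF, the replicate block gave 2, Benjamini-Hochberg 21 and the order as deposited 2. In the order as deposited the median difference of members was 0.061 for EpiSC minus aCF and 0.085 for EpiSC minus CF. Benjamini-Hochberg calls then numbered 5 in aCF and CF and 4 in EpiSC and aCF. In EpiSC and CF they numbered 16 (11 higher and 5 lower), not far below the 21 of the main fit. The cause of these shifts was not tested. Same-numbered EpiSC and aCF samples correlated at 0.031, 0.019, 0.046, 0.16 and -0.006 in their deviations. EpiSC1 and EpiSC4 correlated best with their own number (other numbers at most 0.029 and 0.053), and the other EpiSC samples did not. The main fits did not pair samples by number. These correlations between different cell fractions cannot show whether same-numbered samples came from the same hearts.

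Directions reversed for uncalled differences near 0. Without aCF4 and aCF5, Xaf1 gave 0.046 in aCF minus CF and Irgm1 -0.007 in EpiSC minus aCF. With single arrays left out, EpiSC minus aCF ran from -0.049 to 0.163 for Irgm1, -0.04 to 0.052 for Ifi44l, -0.009 to 0.193 for Trim12a and -0.152 to 0.008 for Irf1, and EpiSC minus CF from -0.001 to 0.092 for Ifi44l and -0.126 to 0.034 for Ifi35. At Benjamini-Hochberg, Psmb10 in aCF and CF was lost with quantile normalization (0.082), the fit of all 3 groups (0.0702) and trend and robust moderation (0.0593). Trend and robust moderation also lost Psmb10 in EpiSC and CF (0.0629). With the replicate block the calls lost were Psmb10 in aCF and CF (0.0565); Usp18, Ifitm3, Xaf1 and Psmb10 in EpiSC and aCF (0.0549 to 0.108); and Ifitm3, Samd9l, Xaf1 and Psmb10 in EpiSC and CF (0.0798 to 0.091). The loss of Ifi35 with the fit of all 3 groups and of Usp18, Ifitm3 and Xaf1 without aCF4 and aCF5 is given above. The mean of a gene's probe sets was not run, since each member has 1. Signal over background is lost in centred values, so a small difference of a faint probe set cannot be told from one of a bright probe set.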

Other observations

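From CF to EpiSC 16 of the 43 other interferon-stimulated genes rose and 6 fell by Benjamini-Hochberg adjustment in limma. Of all rows 32.2% passed, 14.5% higher and 17.7% lower. Past Bonferroni 4 rose and 1 fell, while 1.97% of all rows were higher and 0.941% lower. Oas1g was 1.78 higher on the log2 scale (SE 0.08, Bonferroni adjusted p = 9.81e-06), and the call held in each of 10 omissions of 1 array. Slfn2 was 1.44 higher (Bonferroni adjusted p = 0.00314) and Slfn5 1.23 lower, at -1.23 (Bonferroni adjusted p = 0.0022), and both held as well. Tgtp2 was 2.23 higher (Bonferroni adjusted p = 0.00965), which was lost without CF1 or CF4. Mov10, an RNA helicase of antiviral defence, was 0.99 higher (Bonferroni adjusted p = 0.0188), which held in 2 of 10 omissions and otherwise reached up to 0.125. Among sensing genes Ikbke rose by 0.87 and Mavs and Tlr3 fell by 0.52 and 0.47, at the Benjamini-Hochberg threshold.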
